A study of Mus musculus with 4 samples.

Results

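Heat shock proteins, DnaJ proteins and chaperonins were followed in RNA sequencing of thigh skeletal muscle from wild-type male mice of the inbred C57BL/6J strain. There were 3 libraries at 28 months (here replicates 1 to 3) and 1 library at 18 months, with no treatment at either age. Members were the single genes whose symbol starts with Hspa, Hspb, Hspd, Hspe, Hsph, Dnaja, Dnajb, Dnajc or Cct followed by a digit, or with Hsp90, and pseudogenes were left out. That gave 74 genes among 40137 gene units. The sequencing was made to check a splicing analysis done on exon arrays, and its tables count reads per exonic bin, a piece of exon between annotated boundaries; the 74 genes held 1210 of 374286 bins. Levels are given below as CPM, the summed bin counts of a gene per 1000000 counts of its library, with library sizes scaled by the trimmed mean of M-values (TMM).

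Molecular chaperones bind unfolded proteins and help them reach or keep their shape. Hsp70 proteins (Hspa genes) take up clients with DnaJ proteins (Dnaja, Dnajb and Dnajc genes), which bring the client and stimulate the ATPase, while Hsp110 proteins (Hsph1, Hspa4 and Hspa4l) act as nucleotide exchange factors. Hsp90 proteins finish the folding of kinases and receptors, the small heat shock proteins (Hspb genes) hold unfolding proteins in soluble form, and the chaperonins fold proteins inside a ring, Hsp60 and Hsp10 (Hspd1 and Hspe1) in mitochondria and the CCT complex in the cytosol, where actin and tubulin are its main clients. In muscle the small heat shock proteins are abundant and bind contractile and Z-disc proteins, and part of the family is induced by heat shock factors under stress.

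Of the 74 genes, 66 had a mean count of at least 10 and entered the test of gene sums. The other 8 were Cct8l1, Dnajb3, Dnajb7, Dnajb8, Dnajc22, Dnajc5b, Dnajc5g and Hspb9, none of which had more than 12 counts in any library. Another 6 symbols of the family (Dnaja3, Cct6a, Dnajc25, Dnaja1, Hsp90b1 and Hspa8) were counted only in units joined with other genes, so that their reads cannot be separated from those of their neighbours, and they are given apart. Processed pseudogenes make further sums uncertain: 22 members have 74 of them, led by Hspd1 with 20 and Hsp90ab1 with 14. Hspa1a and Hspa1b are 99.2% identical over 2201 aligned bases, and their counts depend on how the authors treated reads that fit both.

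Libraries held 76163175, 75992582 and 67279205 counts in 28-month replicates 1, 2 and 3, against 65780464 counts in the 18-month library. The extraction text among the labels describes epidermal cells, but all 12 muscle markers were found, with summed levels of 226555, 108063 and 236818 CPM in 28-month replicates 1, 2 and 3, against 135724 CPM at 18 months, while the 10 keratinocyte markers summed to 13.1 to 19.1 CPM at 28 months and 16.9 CPM at 18 months, with Krt5, Krt15 and Ivl at 0. Replicate 2 at 28 months stood apart. Over the 66 tested members its median absolute log2 difference from replicates 1 and 3 was 0.52 and 0.53, whereas replicates 1 and 3 differed by 0.13 and differed from the 18-month library by 0.33 and 0.34. It also had the highest sum of fibroblast and matrix markers, at 1069, 2981 and 1643 CPM in 28-month replicates 1, 2 and 3, against 1695 CPM at 18 months. Calls, lists and some of the genes that differ with it are also given without replicate 2, and those comparisons rest on replicates 1 and 3 at 28 months.

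Per kilobase of exon, the family was led by Hsp90ab1, the constitutive cytosolic Hsp90. Its level per length was 704, 454 and 700 CPM per kilobase in 28-month replicates 1, 2 and 3, against 701 CPM per kilobase at 18 months. Next in mean level per length came Hspb8, the Bag3 partner in clearing damaged filament proteins, at 244 ± 61.0 CPM per kilobase (SD, n = 3) at 28 months and 294 at 18 months. Hspa9, the mitochondrial Hsp70 that pulls in imported proteins, and Hspb6, a small heat shock protein of muscle, followed at 177 ± 34.4 and 124 ± 51.9 CPM per kilobase at 28 months, against 164 and 177 at 18 months. These 4 genes led at both ages, with Hspb6 above Hspa9 in the 18-month library. The subunits Cct8, Cct5, Cct2 and Cct4 had 96.0 ± 10.9, 84.1 ± 15.3, 73.3 ± 14.7 and 53.2 ± 4.46 CPM per kilobase at 28 months, against 81.5, 77.4, 57.4 and 48.5 at 18 months. Dnaja2, an Hsp70 partner of the cytosol, stood highest among DnaJ genes, at 83.8 ± 14.3 and 102 CPM per kilobase at 28 and 18 months. Hspb7 (79.7 ± 49.0 against 83.9), the endoplasmic reticulum Hsp70 Hspa5 (77.6 ± 5.09 against 84.9) and Dnajc8, a DnaJ protein associated with splicing factors (38.8 ± 6.02 against 35.2), completed the leading 12 by mean level per length over the 4 libraries, with Dnajc7 close behind. At the other end, the stress-inducible Hspa1a and Hspa1b had 0.581 and 0.340 CPM per kilobase on average at 28 months.

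No member passed the edgeR quasi-likelihood test of gene sums, 0 of 66, at an adjusted p under 0.05, and none did among all 15376 gene units tested (0%). The DESeq2 Wald test called 0 members and 34 units. At an unadjusted p under 0.05 there were 2 members (3.03%), fewer in share than the 4.9% of all units. Estimates were higher at 28 months for 29 members and lower for 37, against 54.4% higher over all units, and the members' median log2 difference was -0.07, against 0.06 over all. All 28-month values lay above the 18-month value in 12 members (18.2%, background 25.4%) and below it in 20 (30.3%, background 26.4%). Without replicate 2 both counts were 29 (43.9%), against backgrounds of 42.1% above and 41% below. With 3 libraries against 1 no exact permutation p can go below 0.25 one-sided. The p-values measure only the spread between these libraries, which the labels do not tie to separate animals, and the model takes the single library at 18 months to vary as the others do.

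**Figure D1:**
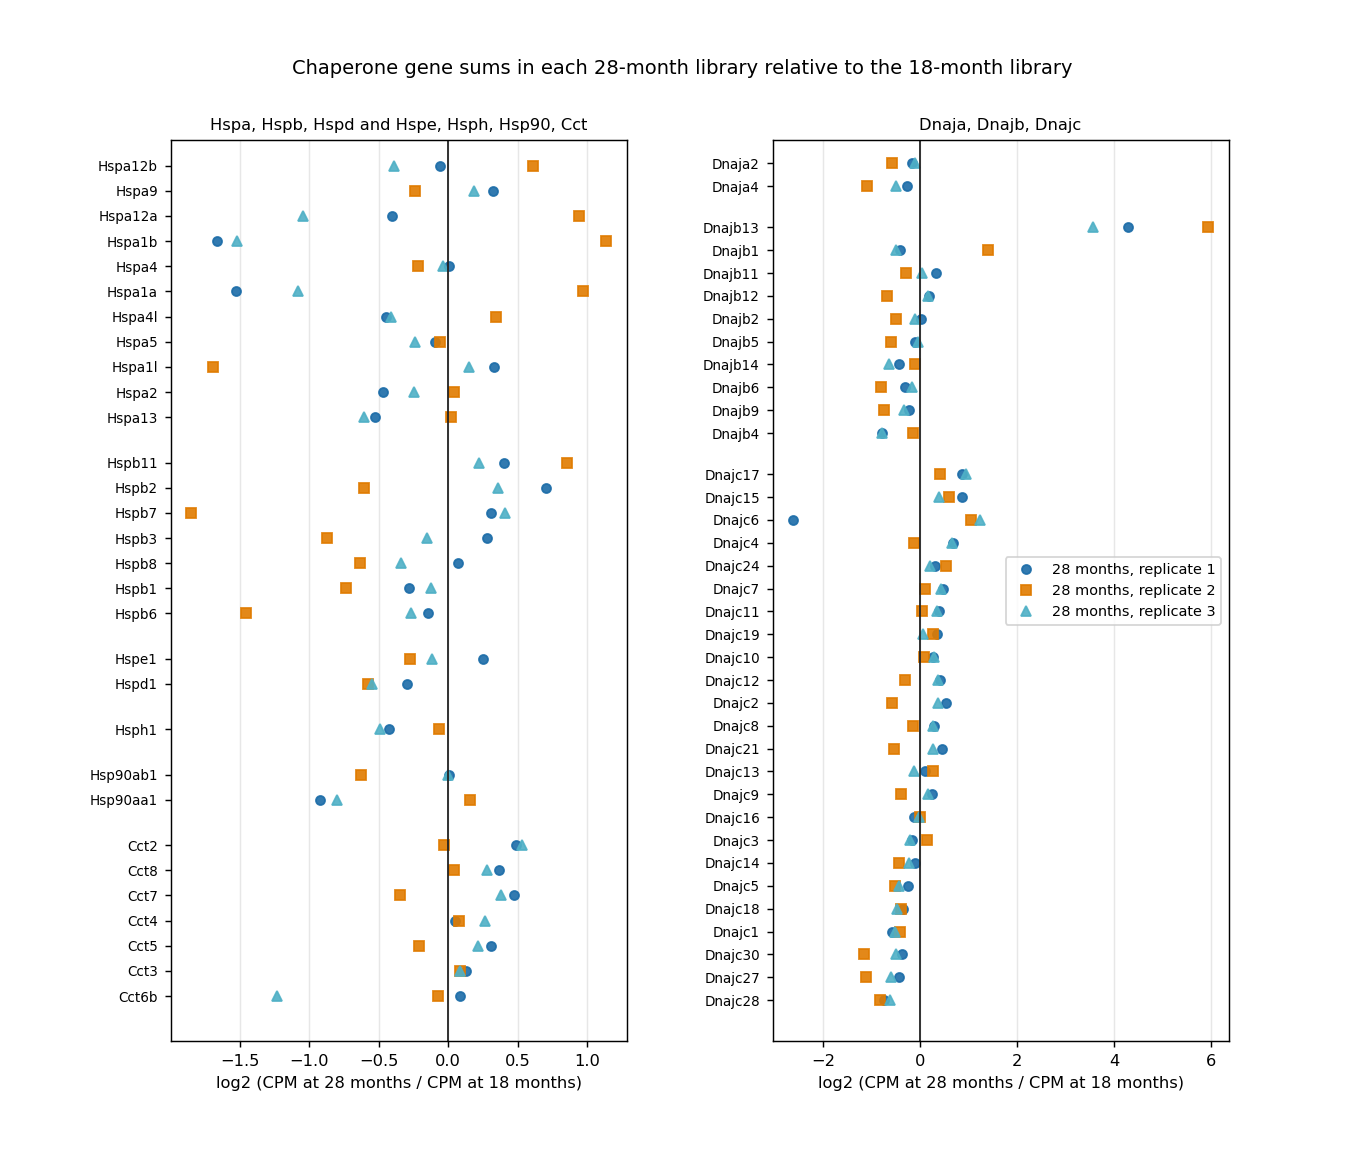
Log2 ratio of the level (TMM-scaled CPM) of each tested member in each 28-month library to its level in the 18-month library, grouped by family; the vertical line marks the 18-month level, and the horizontal scales of the panels differ. Most points lie within 1 log2 unit of the line, replicate 2 is often the outermost point, and Dnajb13 stands far to the right with 2 counts at 18 months.

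The members with the smallest unadjusted p were Dnajb13 and Dnajc28. Dnajb13, a DnaJ protein of cilia and sperm flagella, had 40, 183 and 22 counts in 28-month replicates 1, 2 and 3, against 2 counts at 18 months. All 28-month libraries were higher, at a mean of 0.947 ± 0.814 CPM (SD, n = 3) against 0.0307 CPM, a ratio of 30.8 with a counting interval of 8.53 to 254 (95%, exact Poisson for the 18-month count) and an edgeR p of 0.0248 (adjusted p = 0.859). Without replicate 2 the ratio was 15.7, with a counting interval of 4.34 to 130 (adjusted p = 0.0547). Dnajc28 had 17.1, 16.1 and 18.6 CPM in 28-month replicates 1, 2 and 3, against 28.8 CPM at 18 months. The 28-month libraries lay close together and all below the 18-month library, with a log2 difference of -0.74 ± 0.24 (SE, adjusted p = 0.859).

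Among cytosolic Hsp70, Hsp110 and Hsp90 genes, the stress-inducible ones were higher in 28-month replicate 2 and in the 18-month library than in replicates 1 and 3. Hspa1a, an inducible Hsp70, had 0.644, 3.65 and 0.878 CPM in 28-month replicates 1, 2 and 3, against 1.86 CPM at 18 months. Its near copy Hspa1b had 0.314, 2.19 and 0.348 CPM in the same order at 28 months, against 0.998 CPM at 18 months. Both were highest in replicate 2 and had the 18-month library in second place, so the ages overlapped, with log2 differences of -0.10 ± 1.07 and -0.06 ± 1.27 (SE). Without replicate 2 the log2 differences were -1.26 and -1.56 (adjusted p = 0.129 and 0.122). Dnajb1, the inducible DnaJ partner of Hsp70, had 6.35, 22.2 and 5.93 CPM in 28-month replicates 1, 2 and 3, against 8.43 CPM at 18 months. The inducible Hsp90aa1 had 27.2, 57.6 and 29.7 CPM at 28 months, against 51.7 CPM at 18 months. The order of the libraries was again replicate 2, then 18 months, then the other 2. Hsph1, an inducible Hsp110, had 85.6, 110 and 81.9 CPM in 28-month replicates 1, 2 and 3, against 115 CPM at 18 months. Dnajb4, a DnaJ protein with strong expression in heart and muscle, had 43.3, 67.6 and 43.3 CPM, against 74.8 CPM at 18 months. In these 2 genes the 18-month library was the highest, with replicate 2 nearest to it, and the log2 differences were -0.32 ± 0.30 and -0.54 ± 0.36 (SE). Hspa4 and Hspa4l, of the Hsp110 group, had log2 differences of -0.08 ± 0.29 and -0.12 ± 0.42.

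The list of inducible cytosolic chaperones and their partners had 12 tested genes, of which 11 had a lower estimate at 28 months, 5 had the 18-month value above all 28-month values and 0 passed the adjusted test. Without replicate 1 or without replicate 3 the lower estimates numbered 8 of 12, and by the single highest bin 7 of 12. The median log2 difference was -0.29, against 0.06 over all units, -0.44 without replicate 2 and -0.09 by the single highest bin. Replicate 2 was the highest library in 5 of the 12 genes and the lowest in 4 (backgrounds 32.4% and 31.9% of all units). Immediate early genes are transcription factors and regulators that handling and stress induce within minutes. They were highest in replicate 2 in 14 of 19 genes and lowest in 1 (same backgrounds). Their summed levels were 163, 573 and 189 CPM in 28-month replicates 1, 2 and 3, against 390 CPM at 18 months, and their median log2 difference was -0.29 (0.29 by the single highest bin, -1.01 without replicate 2 and -0.02 without replicate 1 or 3). Their part in the values of the inducible chaperones was not tested.

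Without replicate 2 the test called 4 members among 1806 units (11.7% of all units, 6.06% of the members). Hsp90aa1, Dnajb4 and Dnajc28 fell, with log2 differences of -0.84 (adjusted p = 0.0277), -0.77 (adjusted p = 0.0279) and -0.67 (adjusted p = 0.0493), and Dnajc4 rose by 0.69 (adjusted p = 0.0471). Of the 66 estimates 10 took the other sign, among them Dnajb1 (-0.44), Hspa12a (-0.67) and Hspb7 (0.38), none of which passed. Of the immediate early genes 9 were called lower and 0 higher in that comparison (backgrounds 4.35% and 7.39% of all units). Its spread came from replicates 1 and 3 alone, and the members' share was below that of all units.

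**Figure D2:**
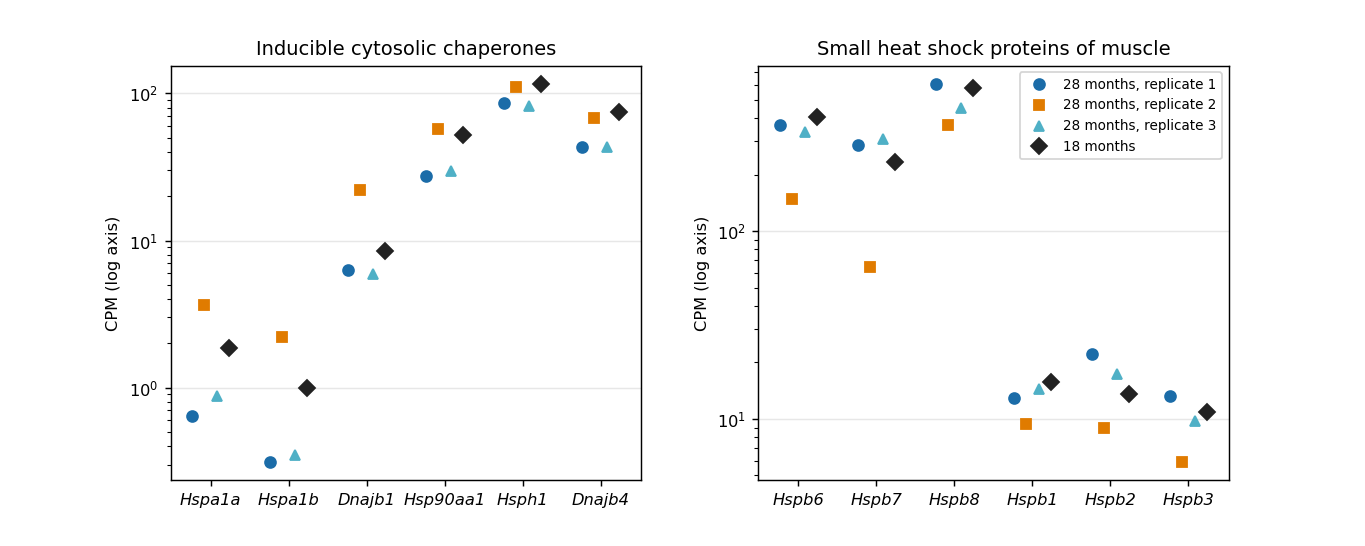
Level (TMM-scaled CPM, log axis) of 6 inducible chaperones and 6 small heat shock proteins of muscle in each library, points only, with no mean drawn. The 6 inducible genes drawn are higher in 28-month replicate 2 and at 18 months than in replicates 1 and 3. The small heat shock proteins are lowest in replicate 2, as are 4 genes of the inducible list (Hsp90ab1, Hspb1, Hspb8 and Cryab) that are not in the inducible panel. Levels are not corrected for gene length.

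The small heat shock proteins showed the opposite pattern among the 28-month libraries. Hspb6 had 369, 149 and 338 CPM in 28-month replicates 1, 2 and 3, against 407 CPM at 18 months. Hspb7, a heart and muscle member that binds filamin C, had 288, 64.5 and 309 CPM, against 232 CPM at 18 months. Hspb8 had 604, 369 and 454 CPM, against 574 CPM at 18 months. In each of them replicate 2 was the lowest library, and only for Hspb6 were all 28-month values below the 18-month value. The log2 differences were -0.51 ± 0.56, -0.08 ± 0.86 and -0.27 ± 0.40 (SE). Hspb1, the Hsp27 gene, had 12.9, 9.41 and 14.3 CPM in 28-month replicates 1, 2 and 3, against 15.7 CPM at 18 months, and Hspb2, which is expressed chiefly in muscle, had 22.1, 8.92 and 17.4 CPM, against 13.5 CPM. Over the list of 7, which adds Hspb3 and Cryab, replicate 2 was lowest in 7 of 7 (background 31.9% of all units). A lower estimate at 28 months was found in 6 of 7 (background 45.6%). The median log2 difference of -0.27 became -0.06 without replicate 2 and 0.08 when each gene was measured by its single highest bin, so it has no stable direction. The muscle markers given above were also lowest in replicate 2, at 108063 CPM, with the 18-month library next at 135724 CPM. At 18 months, however, Hspb6, Hspb1 and Cryab were at their highest, and Hspb2, Hspb3, Hspb7 and Hspb8 lay within the 28-month range. A link between these markers and the small heat shock proteins was not tested. In bulk tissue, fewer cells of a type and less RNA per cell cannot be told apart. Hspb11, which bears the family symbol but is a part of the intraflagellar transport complex, had 5.93, 8.10 and 5.24 CPM in 28-month replicates 1, 2 and 3, against 4.48 CPM at 18 months, and its order of libraries was unlike that of the others.

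Replicate 2 was the lowest library for 34 of the 66 members (51.5%, against 31.9% of all units) and the highest for 14 (21.2%, against 32.4%). Those 14 included Hspa1a, Hspa1b, Hsp90aa1, Dnajb1 and Hspa12a, and its ratio to the mean of replicates 1 and 3 ran from 0.216 for Hspb7 to 6.63 for Hspa1b.

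To show the sequence before the start of inducible, muscle and mitochondrial members described here, 4 promoters are printed with the pair of inverted heat shock units GAANNTTC in capitals. Windows run from 250 bases before to 50 after the RefSeq transcript start on GRCm38.p6, are given 5′ to 3′ on the gene's strand, and were searched on both strands. Hspa1a and Hspa1b, high in replicate 2, and Hspb6, low in it, each hold 1 such match, Hspb6 in 1 of its 2 windows. The overlapping windows of Hspd1 and Hspe1, which start close together on opposite strands, hold 1 match, and that window of Hspd1 is shown. Another window of Hspd1 holds none. All 4 printed windows hold a match, which is not so for every gene described above. Dnajb1, Dnajb4, Hspa4l and Hspb7 have none in any window, while Hsph1, Hspb1, Hspb3 and Hspb8 have at least 1.
Hspa1a, chr17:34972107-34972406, minus strand: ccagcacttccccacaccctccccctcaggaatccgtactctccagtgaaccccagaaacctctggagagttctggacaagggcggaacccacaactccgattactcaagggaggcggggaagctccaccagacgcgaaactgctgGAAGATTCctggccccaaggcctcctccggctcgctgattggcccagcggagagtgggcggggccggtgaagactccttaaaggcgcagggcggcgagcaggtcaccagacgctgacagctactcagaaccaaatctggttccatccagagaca
Hspa1b, chr17:34959189-34959488, minus strand: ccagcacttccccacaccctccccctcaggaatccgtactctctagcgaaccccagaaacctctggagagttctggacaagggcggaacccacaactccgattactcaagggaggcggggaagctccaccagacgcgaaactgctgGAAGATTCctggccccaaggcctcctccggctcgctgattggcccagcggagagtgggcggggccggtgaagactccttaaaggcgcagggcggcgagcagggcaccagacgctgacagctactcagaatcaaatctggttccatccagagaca
Hspb6, chr7:30553051-30553350, plus strand: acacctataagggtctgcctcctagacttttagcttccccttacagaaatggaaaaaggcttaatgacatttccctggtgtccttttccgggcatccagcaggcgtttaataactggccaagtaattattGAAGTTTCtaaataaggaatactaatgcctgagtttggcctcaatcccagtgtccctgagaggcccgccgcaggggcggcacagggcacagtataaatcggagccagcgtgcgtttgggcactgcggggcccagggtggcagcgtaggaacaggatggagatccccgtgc
Hspd1, chr1:55087883-55088182, minus strand: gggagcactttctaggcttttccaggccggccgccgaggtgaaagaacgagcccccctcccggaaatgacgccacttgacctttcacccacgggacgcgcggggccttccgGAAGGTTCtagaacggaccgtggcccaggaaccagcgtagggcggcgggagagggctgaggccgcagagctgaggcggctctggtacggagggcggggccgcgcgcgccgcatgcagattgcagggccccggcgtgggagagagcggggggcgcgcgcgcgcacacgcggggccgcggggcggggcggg

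GAANNTTC was present in a window of 15 of the 60 members that had one (25%), against 9.04% of 27025 genes in the same table. The 3-unit forms GAA-NN-TTC-NN-GAA and TTC-NN-GAA-NN-TTC, which contain the shorter motif, were present in 4 members (Dnajb6, Hspd1, Hspe1 and Hsph1; 6.67%), against 0.662%. Hspd1 and Hspe1 share 1 stretch of DNA. The matches describe these letters only.

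Mitochondrial chaperones had mixed values. Hspd1, the Hsp60 ring, had 94.1, 77.4 and 78.9 CPM in 28-month replicates 1, 2 and 3, against 115 CPM at 18 months. Hspe1, its Hsp10 lid, had 14.1, 9.80 and 10.9 CPM, against 11.8 CPM at 18 months. All 28-month values of Hspd1 were below the 18-month value while Hspe1 overlapped, with log2 differences of -0.47 ± 0.28 and -0.03 ± 0.33 (SE). The pair overlaps at the 5′ ends on opposite strands and the strand setting of the counting is not given, so their reads near the start cannot be assigned with certainty. Hspa9 had 886, 598 and 803 CPM in 28-month replicates 1, 2 and 3, against 707 CPM at 18 months, which lies within the 28-month range. Dnajc15, a DnaJ protein of the inner membrane, had 107, 87.9 and 76.4 CPM, against 58.7 CPM at 18 months. All 28-month libraries were above 18 months for Dnajc15, as they were for Dnajc19 and Dnajc11, of the import motor and of cristae organisation, and the Dnajc15 log2 difference was 0.63 ± 0.32 (SE). Of the 14 genes in the mitochondrial list 11 had a higher estimate at 28 months (background 54.4%) and 0 passed. The list's median log2 difference was 0.19 (0.38 by the single highest bin). Without replicate 2 the median was 0.29 and 2 of the 14 genes were called, both higher (background 7.39% of all units). They were Trap1, the mitochondrial Hsp90, and Clpp, a matrix protease subunit.

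In the endoplasmic reticulum, Hspa5 (BiP, the lumenal Hsp70) had 337, 344 and 304 CPM in 28-month replicates 1, 2 and 3, against 359 CPM at 18 months. Dnajb9, a BiP partner in degradation of misfolded proteins, had 42.9, 30.05 and 40.3 CPM, against 50.7 CPM at 18 months. Dnajc3, a BiP partner induced by lumenal stress, had 58.6, 71.9 and 56.7 CPM, against 65.5 CPM at 18 months. The 18-month library was highest for Hspa5 and Dnajb9 and within the range for Dnajc3. Dnajb11 had 79.9, 51.8 and 65.7 CPM, against 64.0 CPM, and the membrane protein Dnajc1 had 17.6, 19.7 and 18.3 CPM, against 26.2 CPM, for log2 differences of 0.04 ± 0.34 and -0.50 ± 0.24 (SE). The list of 14 genes split 8 higher and 6 lower (background 54.4% higher), with 0 called. Its median log2 difference was 0.07 (-0.15 when each gene was measured by its single highest bin, 0.14 without replicate 2 and 0.00214 without replicate 1).

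The CCT subunits lay slightly toward 28 months. Cct2 had 206, 144 and 212 CPM in 28-month replicates 1, 2 and 3, against 147 CPM at 18 months. Cct8 had 325, 259 and 305 CPM, against 252 CPM at 18 months. Cct7 had 261, 148 and 245 CPM, against 188 CPM at 18 months. For Cct8, as for Cct3 and Cct4, every 28-month library was above the 18-month library, while for Cct2, Cct5 and Cct7 replicate 2 lay below it. The log2 differences of these 6 subunits ran from 0.10 (Cct3) to 0.35 (Cct2), each smaller than its SE. Cct6b, a testis-enriched copy, had at most 0.539 CPM in any library. With the prefoldin genes, which hand actin and tubulin to the ring, 12 of 12 genes in the list had a higher estimate (background 54.4%). The median log2 difference was 0.20 and 0 were called. The lists were chosen with earlier results of these data known, and all estimates share the single 18-month library. The sign count is therefore no test. The higher estimates numbered 11 without replicate 2 (median 0.38) and 10 without replicate 1 (median 0.08). Without replicate 2 the prefoldin gene Pfdn1 was called higher (background 7.39% of all units). Replicate 2 was lowest in 6 of the 12 (background 31.9% of all units).

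DnaJ genes spread in both directions. Of the 24 tested Dnajc genes 15 had a higher and 9 a lower estimate, of the 10 Dnajb genes 3 and 7, and both tested Dnaja genes a lower one. Over all units 54.4% of estimates were higher. Dnaja4 had 75.8, 42.9 and 65.1 CPM in 28-month replicates 1, 2 and 3, against 92.3 CPM at 18 months, and Dnaja2 had 268, 201 and 279 CPM, against 303 CPM. The 28-month values of both were all below the 18-month value, at log2 differences of -0.59 ± 0.38 and -0.28 ± 0.34 (SE). Dnajb5, a cytosolic DnaJ protein, had 161, 114.2 and 168 CPM at 28 months, against 174 CPM at 18 months. Dnajb6, which suppresses aggregation and is found at the Z-disc, had 18.3, 13.1 and 20.3 CPM, against 22.9 CPM. Both were again lower in every 28-month library, though Dnajb6 has 9 processed pseudogenes. Dnajb2, enriched in neurons, had 69.4, 48.1 and 63.5 CPM, against 68.6 CPM at 18 months, and overlapped.

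Among Dnajc genes of high level, Dnajc7, an adaptor between Hsp70 and Hsp90, had 209, 160 and 202 CPM in 28-month replicates 1, 2 and 3, against 150 CPM at 18 months. Dnajc21, of ribosome assembly, had 174, 88.4 and 154 CPM, against 128 CPM at 18 months. Only Dnajc7 had all 28-month values on one side. Dnajc17, Dnajc24, Dnajc10, Dnajc11 and Dnajc19 also had every 28-month library above the 18-month library, and Dnajc17 had 6.66, 4.90 and 7.11 CPM against 3.69 CPM, a log2 difference of 0.75 ± 0.39 (SE). On the lower side, Dnajc27, which joins a DnaJ domain to a small GTPase, had 78.5, 48.9 and 70.1 CPM, against 107 CPM at 18 months, for a log2 difference of -0.70 ± 0.34 (SE). Dnajc30 of mitochondria and Dnajc18 had log2 differences of -0.64 ± 0.40 and -0.41 ± 0.24, with every 28-month value below the 18-month value. None of these passed the adjusted test. The 11 tested members not described one by one were Dnajb12, Dnajb14, Dnajc2, Dnajc6, Dnajc9, Dnajc12, Dnajc13, Dnajc16, Hspa1l, Hspa2 and Hspa12b. Their log2 differences lay between -0.38 (Dnajb14) and 0.60 (Dnajc6), each within 1.5 SE. In 9 of the 11 the 18-month value lay inside the 28-month range (background 48.2% of all units). Members of smallest p had been named already, so this share follows in part from the naming rule.

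The units that join a member symbol with other genes hold a large constitutive Hsp70. The unit of Hspa8 (Hsc70, the housekeeping Hsp70) with the small nucleolar RNAs in its introns had 348, 453 and 342 CPM in 28-month replicates 1, 2 and 3, against 743 CPM at 18 months. All 28-month values were far below the 18-month value, at a log2 difference of -0.96 ± 0.34 (SE, adjusted p = 0.859) and of -1.09 without replicate 2 (adjusted p = 0.0155). Hsp90b1 (Grp94, the lumenal Hsp90), joined with 2 predicted genes, had 313, 339 and 328 CPM, against 276 CPM at 18 months. The unit of Dnaja1 with a microRNA had 9.76, 29.0 and 8.83 CPM, against 21.1 CPM at 18 months. The Dnaja1 unit was above the 18-month level in replicate 2 alone, as Hspa1a was, with a log2 difference of -0.41 ± 0.73 (SE) and of -1.16 without replicate 2 (adjusted p = 0.0189), and the Hsp90b1 unit had all 28-month values above. The units of Dnaja3 and Cct6a had log2 differences of -0.05 ± 0.30 and 0.30 ± 0.28.

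Among heat shock factors and cochaperones outside the family rule, 20 of 29 tested genes had a higher estimate and 9 a lower one (background 54.4% higher). Of these genes 0 were called and 3 had an unadjusted p under 0.05 (background 4.9%), and the median log2 difference was 0.15. Without replicate 2 the median was 0.29, with 7 genes called higher and 3 lower (backgrounds 7.39% and 4.35% of all units). Ptges3 (p23, an Hsp90 cochaperone) had 23.0, 26.1 and 21.01 CPM in 28-month replicates 1, 2 and 3, against 45.4 CPM at 18 months. Bag3, the Hspb8 and Hsp70 partner, had 32.8, 37.9 and 37.1 CPM, against 57.6 CPM at 18 months. Unc45a, a myosin chaperone, had 14.3, 12.3 and 12.4 CPM, against 7.65 CPM. Each of the 3 had the 18-month value outside the 28-month range, with log2 differences of -0.96 ± 0.25, -0.68 ± 0.25 and 0.76 ± 0.29 (SE). All 3 passed without replicate 2 (adjusted p = 0.0180, 0.0455 and 0.0478). Hsf1, the main heat shock factor, had 56.4, 22.3 and 49.3 CPM at 28 months, against 24.8 CPM at 18 months, and Hsf4 had 15.9, 5.24 and 15.3 CPM, against 4.38 CPM. These 2 factors were low in replicate 2 and at 18 months, the reverse of Hspa1a, while the factor Hsf2 had 30.1, 37.8 and 32.3 CPM, against 26.0 CPM at 18 months, and was highest in replicate 2. Without that library Hsf1 and Hsf4 rose, by 1.11 and 1.85 on the log2 scale (adjusted p = 0.0191 and 0.0143), and Hsf2 did not pass (adjusted p = 0.263). Cryab, a small heat shock protein of the Z-disc, had 637, 294 and 577 CPM, against 643 CPM at 18 months, Unc45b had 259, 183 and 301 CPM, against 208 CPM, and the unit holding the CCT subunit Tcp1 had 333, 257 and 349 CPM, against 292 CPM.

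The exon usage test asked whether the bins of a gene take different shares at the 2 ages, and here members did pass. With edgeR diffSpliceDGE, 58 members had at least 2 tested bins and 5 were called by the Simes p per gene (8.62%), against 389 of 11000 genes (3.54%): Hspa9 (adjusted p = 4.37e-21), Hsp90ab1 (4.65e-10), Cct8 (3.67e-08), Cct5 (2.56e-06) and Hspa13 (0.0228). Of 824 member bins 13 were called (1.58%, background 0.366%), of which 12 had a lower use at 28 months (1.46%, background 0.158%) and 1 a higher use (0.121%, background 0.208%). Bins entered at a mean of 10 or more counts over the 4 libraries. Apart from Hsp90ab1 bin 5, the called bins of lower use had under 10 counts in every 28-month library. They entered only through the 18-month count, and the called bin of higher use only through the 28-month counts. Background bins passed the same filter. Shares below are a bin's percentage of the tested bin counts of its gene, and intervals at 18 months are exact binomial ones (95%) that cover counting error only.

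**Figure D3:**
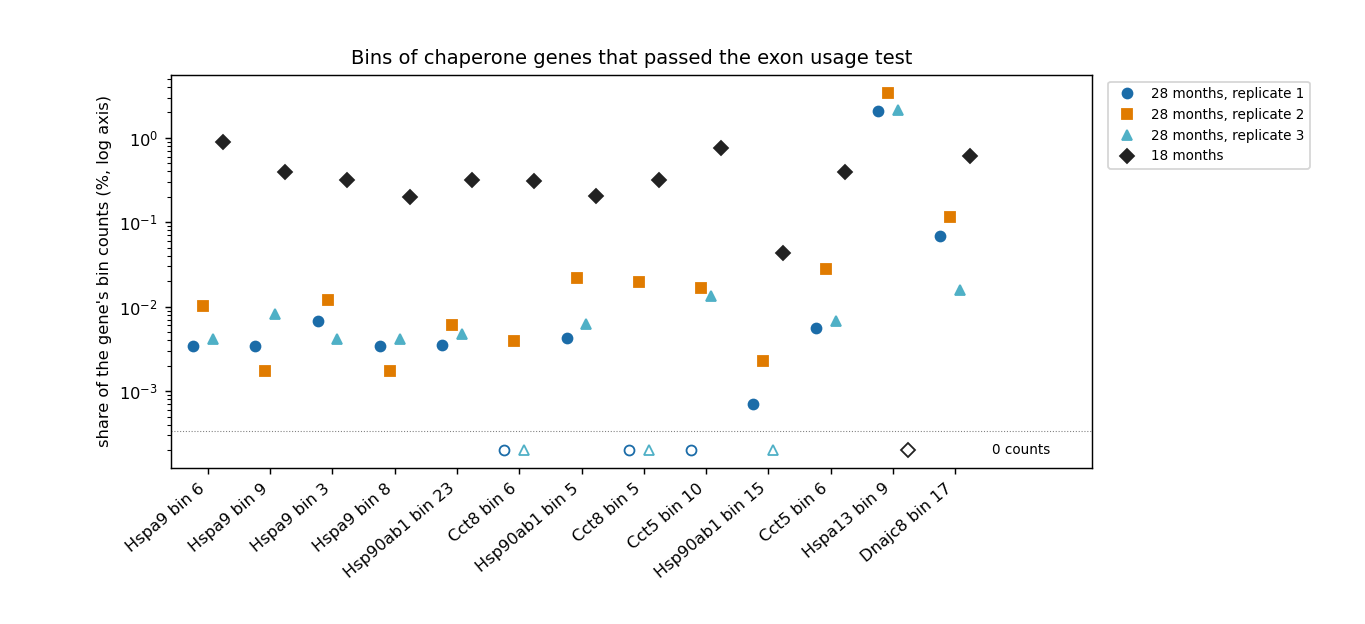
Share of the gene's tested bin counts (%, log axis) for the 13 member bins that passed the exon usage test, in each library; open symbols below the dotted line are libraries with 0 counts. In 12 bins the 18-month share lies above every 28-month share, and in Hspa13 bin 9 the 18-month library has 0 counts.

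Of the 8 called bins that could be placed on the GENCODE M21 annotation of GRCm38, 7 are shown (Hsp90ab1 bin 15, of 3 bases, is not) because they share their position, next to or between annotated splice sites. They are printed 5′ to 3′ on the gene's strand, with GT at an intron start and AG at an intron end in capitals. The first 3 are whole annotated introns. Cct8 bins 6 and 5 adjoin and are printed as 1 run from the start of their intron, and the Cct5 bin 6 and Dnajc8 bin 17 sequences end an intron.
Hsp90ab1 bin 23, chr17:45571620-45571764, minus strand: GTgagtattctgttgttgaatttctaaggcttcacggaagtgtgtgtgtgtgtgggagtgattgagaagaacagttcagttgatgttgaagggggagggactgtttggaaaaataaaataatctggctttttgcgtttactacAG
Hsp90ab1 bin 5, chr17:45569127-45569239, minus strand: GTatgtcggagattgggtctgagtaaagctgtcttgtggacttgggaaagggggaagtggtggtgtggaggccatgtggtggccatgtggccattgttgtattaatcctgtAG
Cct5 bin 10, chr15:31594247-31594333, minus strand: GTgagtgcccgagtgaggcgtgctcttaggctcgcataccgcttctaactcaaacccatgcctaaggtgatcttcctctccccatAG
Cct8 bins 6 and 5, chr16:87485439-87485579, minus strand: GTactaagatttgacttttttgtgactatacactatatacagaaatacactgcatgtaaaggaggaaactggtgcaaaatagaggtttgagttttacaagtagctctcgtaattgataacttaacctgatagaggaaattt
Dnajc8 bin 17, chr4:132544617-132544656, plus strand: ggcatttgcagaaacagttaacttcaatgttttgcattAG
Cct5 bin 6, chr15:31593053-31593061, minus strand: tcctgacAG

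Hsp90ab1 spans chr17:45567775-45573271 on the minus strand and has 29 bins. Its bin 23, a retained intron of 145 bases in 1 of 8 annotated transcripts, had 5, 8 and 6 counts in 28-month replicates 1, 2 and 3, against 434 counts at 18 months. Its bin 5, a retained intron of 113 bases, had 6, 29 and 8 counts, against 282 counts at 18 months. Bin 15, the first 3 bases of a further intron, had 1, 3 and 0 counts, against 59 counts at 18 months. The adjoining bin 14 was not called, with 66, 8 and 0 counts, against 57 counts at 18 months. All 28-month libraries were far below the 18-month library in the 3 called bins. The tested bins of the gene summed to 126675 to 141027 counts in the 28-month libraries and 136885 at 18 months. The bin 23 share was 0.00477 ± 0.00124% (SD, n = 3) at 28 months, against 0.317% (0.288 to 0.348) at 18 months (adjusted p = 1.38e-10). The bin 5 share was 0.0108 ± 0.00963%, against 0.206% (0.183 to 0.231; adjusted p = 4.09e-07), and the bin 15 share 0.00099 ± 0.00116%, against 0.0431% (0.0328 to 0.0556; adjusted p = 0.00046). Even at 18 months these introns held well under 1% of the counts of the gene.

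Cct5 and Cct8, both CCT subunits, had the same kind of bin. Cct5 bin 10, a retained intron of 87 bases, had 0, 3 and 2 counts in 28-month replicates 1, 2 and 3, against 106 counts at 18 months, and a share of 0.0100 ± 0.00883% at 28 months, against 0.763% (0.625 to 0.922) at 18 months (adjusted p = 1.62e-06). Cct5 bin 6, the last 9 bases of an intron of 462 bases, had 1, 5 and 1 counts, against 55 counts at 18 months (adjusted p = 0.00106, and 0.0650 without replicate 1). The next bin of Cct5, bin 7, was not called, with 3, 4 and 42 counts, against 38 counts at 18 months. Cct8 bin 6, the first base of an intron of 656 bases, had 0, 1 and 0 counts, against 50 counts at 18 months, and the adjoining bin 5 of 140 bases had 0, 5 and 0 counts, against 52 counts (adjusted p = 1.33e-08 and 8.77e-07). The 2 Cct8 bins touch and can share fragments, so they are not separate evidence. In replicates 1 and 3 they held no count at all.

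**Figure D4:**
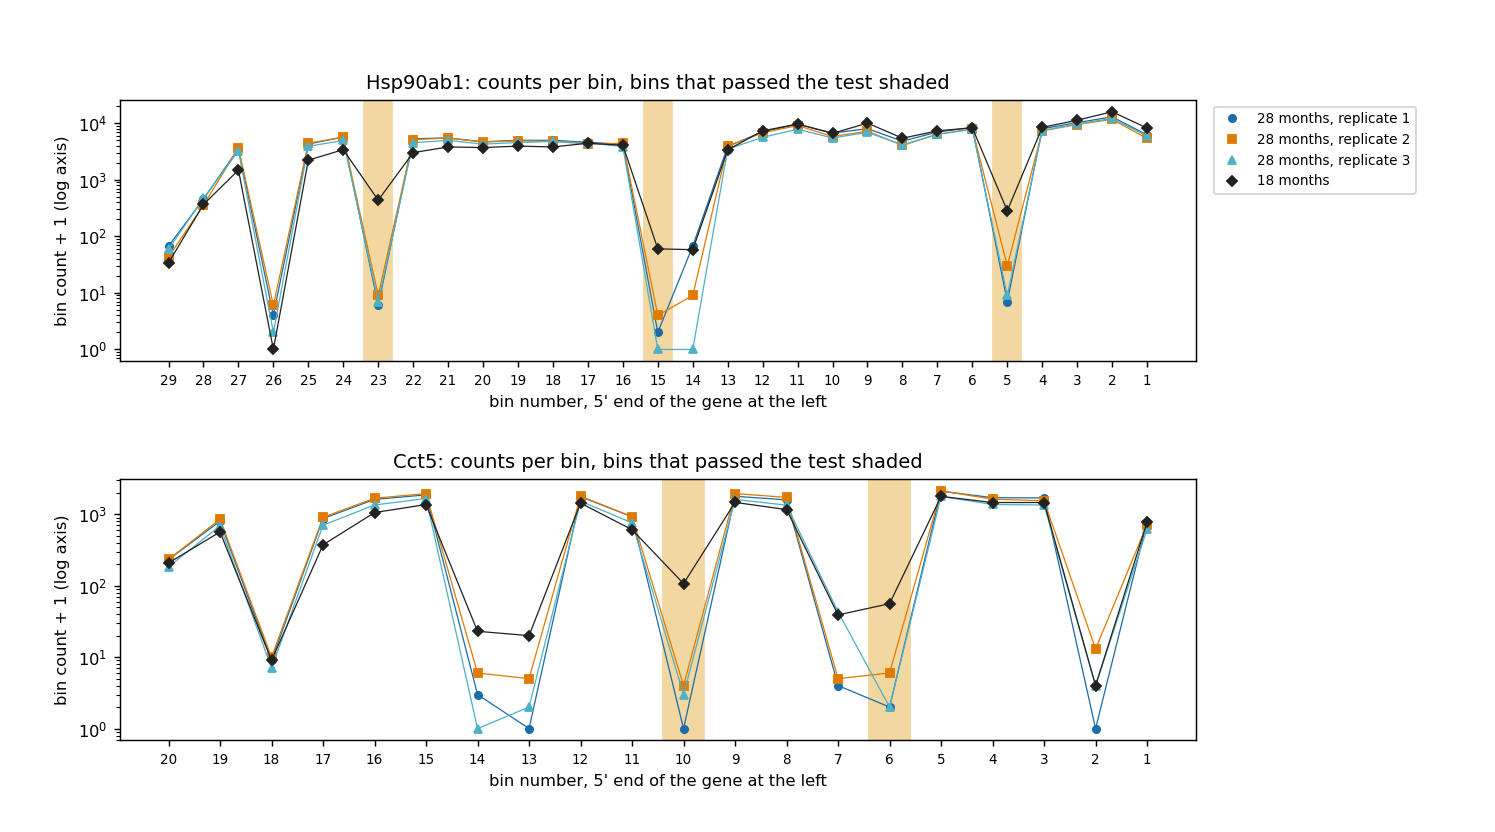
Count plus 1 in each bin (log axis) of Hsp90ab1 and Cct5 in the 4 libraries, in order from the 5′ end, with bins that passed the exon usage test shaded; lines only join the bins of a library. The libraries run together over most exons, and in the shaded bins the 18-month library stands far above the 28-month libraries.

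Hspa9 had the 4 called bins with the smallest p of the family, but its bins could not be placed on the annotation. In bin 6 there were 2, 6 and 2 counts in 28-month replicates 1, 2 and 3, against 411 counts at 18 months. Bin 9 had 2, 1 and 4 counts, against 179 counts at 18 months. Bins 3 and 8 had 4, 7 and 2 and 2, 1 and 2 counts, against 144 and 92 counts at 18 months. All 4 were near 0 in every 28-month library. Bin 6 had a share of 0.00593 ± 0.00379% at 28 months, against 0.893% (0.809 to 0.983) at 18 months (adjusted p = 2.28e-21), and bin 9 a share of 0.00445 ± 0.00340%, against 0.389% (0.334 to 0.4502; adjusted p = 4.55e-17). The adjusted p of bins 3 and 8 were 1.03e-13 and 2.66e-11.

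Dnajc8 bin 17, the 40 last bases of an intron, was called as a bin although its gene was not (Simes adjusted p = 0.0663). It had 5, 9 and 1 counts in 28-month replicates 1, 2 and 3, against 35 counts at 18 months, and a share of 0.0663 ± 0.0494%, against 0.601% (0.419 to 0.835; adjusted p = 0.0346). Every 28-month library was lower, but the call was lost without replicate 1 (adjusted p = 0.142) and without replicate 3 (adjusted p = 0.570).

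Hspa13, an Hsp70-like ATPase of microsomes, had the 1 bin of the opposite direction. Its bin 9, the first tested bin from the 5′ end, had 16, 56 and 14 counts in 28-month replicates 1, 2 and 3, against 0 counts at 18 months. Every 28-month library had counts and the 18-month library none, although its total of 1078 counts over the tested bins lay between the 28-month totals of 651 and 1639. The share was 2.55 ± 0.750% at 28 months, against 0% (exact interval up to 0.342) at 18 months. A floor of 3 counts in 1078 is 0.278%, and the pooled share at 28 months was 10.1 times that floor (adjusted p = 0.0338). The exact upper limit of 0.342% lies above the floor, so this fold is no lower bound. The call was lost without replicate 1 (adjusted p = 0.245), without replicate 3 (0.221) and with limma voom (0.261).

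Of the 13 called bins 8 could be placed, and all 8 lay on the intron side of an annotated splice site: 5 among 22 tested member bins that are part of an annotated retained intron (22.7%, against 3.13% of such bins in all genes, lower at 28 months), 2 among 28 bins after a donor site (7.14%, background 1.99%) and 1 among 17 before an acceptor site (5.88%, background 1.57%). None of 480 other placed member bins was called (0%, background 0.00424% lower and 0.212% higher at 28 months). With intron-side bins left out, an alternative chosen after seeing the data, 0 of 33 placed members were called, against 117 of 5963 genes (1.96%). All 8 placed called bins were among those left out, so this 0 cannot serve as a check. Hspa9 and Hspa13 could not be placed and did not enter it. Bins placed in retained introns held 2.33, 2.57 and 2.39% of counts of the 46 placed members in 28-month replicates 1, 2 and 3, against 2.43% at 18 months. Over all placed genes they held 0.975, 1.22 and 0.946%, against 1.12%. Hsp90ab1 bin 19, in this class by annotation, had 4992, 4867 and 4552 of the members' 9120, 9836 and 8071 class counts, against 3929 of 8859 at 18 months. Its counts were level with those of neighbouring exon bins, so the class share does not describe introns alone. Of the 11 members with enough counts in such bins, the 18-month share was above all 28-month shares in 3 (Cct4, Cct5 and Dnajc8, 27.3%, background 40.9%). It was below them in 4 (36.4%, background 21%), among them Hsp90ab1 with bin 19 counted, although its called bins went the other way. All intron-side bins together held 17.3, 17.5 and 17.7% of the members' counts in 28-month replicates 1, 2 and 3, against 16.6% at 18 months. Hsp90ab1 alone gave 58788, 55938 and 51809 of these 67749, 67111 and 59717 counts, against 51981 of 60331 at 18 months. At 41.7, 42.2 and 40.9% of that gene's counts, against 38.0%, its intron-side bins include bins of exon level. The direction of the sum therefore cannot be set against that of the called bins. Of 23 members with enough counts in intron-side bins, the 18-month share was above all 28-month shares in 4 (17.4%, background 34.9%) and below them in 11 (47.8%, background 34.6%), with the same limit.

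Beyond the called bins, first bins leaned to 28 months. In the first tested bin from the 5′ end, all 28-month shares were above the 18-month share in 44 of 58 members (75.9%, against 63.3% of all genes) and below it in 4 (6.9%, against 12.1%). Hspe1 bin 2 took 25.1, 18.8 and 23.1% of its gene's counts in 28-month replicates 1, 2 and 3, against 8.05% at 18 months. Dnajc5, the cysteine string protein of synaptic vesicles, had 33, 29 and 16 counts in its first bin, against 1 count at 18 months. Both had every 28-month library above, yet neither passed (adjusted p = 0.499 and 0.0555). In Hsp90ab1 the third bin from the 5′ end had 3549, 3669 and 3245 counts in 28-month replicates 1, 2 and 3, against 1481 counts at 18 months, while bin 2 near the 3′ end had 12914, 11676 and 12152 counts, against 15933 counts. The 18-month library thus held fewer counts toward the 5′ end and more toward the 3′ end of this gene. This tilt moves with the Hspa13 call, a first bin, and its part in that call was not tested.

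**Figure D5:**
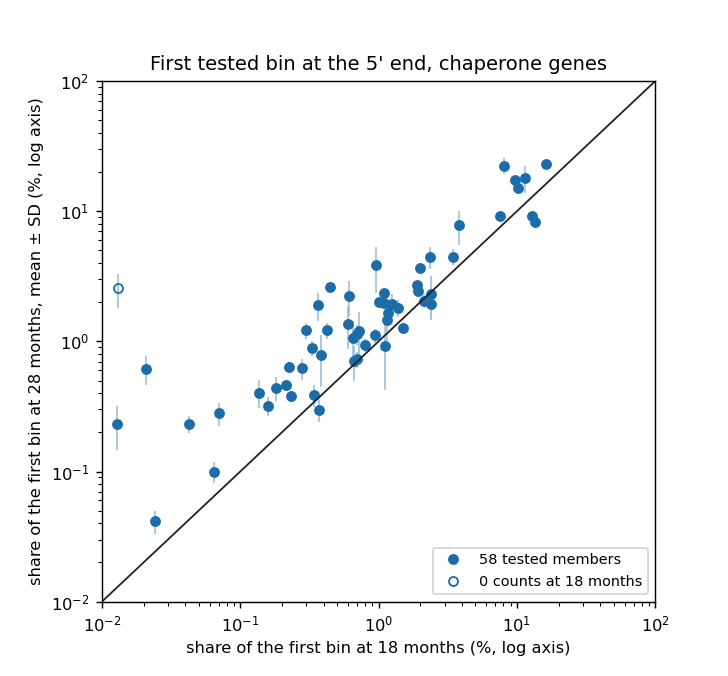
Share of the gene's tested counts (%, log axes) in the first tested bin from the 5′ end, at 28 months (mean ± SD of 3 libraries, vertical) and at 18 months (1 library, horizontal) for 58 members; the open circle had 0 counts at 18 months and the diagonal marks equal shares. Most points lie above the diagonal, and in 44 of 58 every 28-month share was above the 18-month share.

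Other members with small gene p, none past the threshold with all libraries, were Hspa5, Cct4, Dnajc14 and Hspe1. Hspa5 bins 23 and 26 had 0, 15 and 0 and 1, 31 and 2 counts in 28-month replicates 1, 2 and 3, against 50 and 61 counts at 18 months. Cct4 bin 24, a retained intron of 407 bases, had 51, 94 and 36 counts, against 145 counts at 18 months. In these bins replicate 2 lay between the other 28-month libraries and the 18-month library. Hspa5 bins 4 and 6 went the other way, with 62, 45 and 53 and 274, 217 and 238 counts, against 3 and 67 counts at 18 months. Dnajc14 bin 1 was also higher at 28 months, with 51, 60 and 27 counts, against 9 counts at 18 months. Without replicate 2 the usage test called 31 of 58 members (53.4%, against 30% of all genes), among them all 5 above. A spread taken from replicates 1 and 3 alone underlies those calls.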

How the data were processed

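Deposited tables give raw bin counts as the authors made them, without normalization. Per the submitters' processing notes, bcl2fastq 1.8.3 converted the reads and TopHat2 2.0.4 placed them on GRCm38; the counter, annotation release and strand setting are not given in the sources used here. Bin names look like output of the DEXSeq script, where a fragment counts in every bin it spans. The 5 entries that name no gene (3.36 to 4.56% of entries at 28 months, 5.20% at 18 months) were left out, and no libraries were duplicates. Members, lists and the naming rule were chosen with earlier results of these data known.

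Bins were summed per gene unit, and all units averaging 10 or more counts were tested with edgeR 4.0.16 (TMM, quasi-likelihood, Benjamini-Hochberg), which left 2 residual degrees of freedom, from the 28-month libraries. Exon usage was tested with diffSpliceDGE on bins averaging 10 or more counts. Calls were made at an adjusted p under 0.05. Both tests were run on simulated data that held no outlying library, so that run does not vouch for the calls made here. Named with values were members called by either test, in each direction the 8 of smallest p at 1 CPM or more, the 12 highest per length, the leading members of each family and a set fixed by name; Dnajb13, below 1 CPM, was added after its values were seen. Bins were placed where their number equalled that of the flattened GENCODE M21 annotation (46 of 74 members), which does not prove the placement. Pseudogenes were matched with BLAST 2.17.0 over at least 100 aligned bases. Promoter windows came from RefSeq on GRCm38.p6 (60 members matched). Alternatives used DESeq2 1.42.0, limma 3.58.1, other filters and library sizes, the single highest bin per gene, and each 28-month library left out.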

Additional observations from a re-analysis of the deposited data

How the results depend on the processing

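No paired analysis was possible because the groups share only 1 replicate number. Gene units called, 0 in the main test, numbered 34 with the DESeq2 Wald test and 1 to 1806 when 1 28-month library was left out; members called were 0 to 4, the 4 without replicate 2 and 0 under every other alternative. Genes called for exon usage, 389 in the main test, numbered 234 with a mean of at least 30 counts per bin, 1765 with limma voom, 206 without first and last bins, 3375 by the gene-level F-test, 117 among placed genes without intron-side bins and 164 to 3299 when 1 library was left out. Members called, 5 in the main test, were 3, 14, 4, 23, 0 and 4 to 31 under the same settings, and member bins called, 13 in the main test, were 6, 39 and 12 under the first 3, 0 without intron-side bins and 11 to 94 when 1 library was left out. The setting without intron-side bins left out every placed called bin, so its 0 is no check on the calls. Members with every 28-month value above the 18-month value, 12 in the main count (18.2%, background 25.4%), were 13 to 29 when 1 library was left out. Without replicate 2 there were 29 (43.9%, background 42.1%). Such a count tends to rise when fewer 28-month libraries must lie above, and the background rose too. By the single highest bin per gene, 19 of 64 members took the other sign, the median log2 difference became -0.15 for the endoplasmic reticulum list and 0.42 for the CCT and prefoldin list, and the median level per length became 9.81 CPM per kilobase, against 11.8 in the main scaling and 17.5 with library sizes that omit mitochondrial and the 20 most abundant genes. The causes were not tested. A single library at 18 months limits every comparison, and a bin listed with 0 counts shows only a share of the order of 3 counts or less.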
